A study of Mus musculus with 2 samples.

Results

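The genes described here serve autophagy and the lysosome, without the cathepsins. They are 41 named genes, 20 of autophagy, 19 of the lysosome and the transcription factor genes Tfeb and Tfe3, which act on both. A probe set was taken as a member where it carried exactly 1 gene symbol and that symbol was among the 41. This gave 91 probe sets for 39 genes, of 18193 genes with such probe sets on the array. Optn and Cd63 have no such probe set here and are not analysed. All 39 genes had at least 1 probe set bright enough to be used.

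Autophagy encloses cytoplasm in a double membrane, the autophagosome, which fuses with the lysosome so that its content is broken down. Kinase and lipid kinase complexes start the membrane, a ubiquitin-like conjugation system attaches the LC3 and GABARAP proteins to it, and cargo receptors tie ubiquitinated proteins or organelles to those proteins. The lysosome supplies acid hydrolases, membrane proteins that protect it and move lipids and ions, and a V-type ATPase that pumps protons into its lumen. TFEB and TFE3 bind E-box elements in the promoters of many of these genes. In osteoblasts, which secrete bone matrix, autophagy is known to take part in mineralisation, and in tumour cells it is known to help survival when nutrients are short.

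The study has 2 arrays, 1 of MOS-J cells that carry human DKK1 (group DKK1) and 1 of MOS-J cells that carry a control vector (group control). The MOS-J line comes from a mouse osteosarcoma, and DKK1 is an inhibitor of canonical Wnt signalling that cells secrete. Both groups share the line and the medium, and the labels call both vectors lentiviral. The protocol text describes viral delivery with G418 selection of clones, and plasmid delivery by nucleofection with blasticidin selection, followed by a red fluorescent mitochondrial label and sorting. The sources used here do not say which of these the profiled cells went through, or whether either line is 1 clone. With 1 array per group there is no replicate error, no test and no p-value, and each difference compares these 2 arrays. Values are MAS5 signals on a linear scale, and a difference is log2(signal + 16.6), DKK1 minus control. Probe sets were used if their 2 signals averaged at least 71.3, which is the median of such averages. Each gene's difference is averaged over its used probe sets, and their SD describes agreement within the arrays. Calls, higher or lower, needed a difference of 1 or more in size, which is 2-fold, with the same sign in every used probe set.

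The arrays differed in technical measures that touch every value below. Hybridisation controls had a median log2 ratio of −0.37 (18 probe sets) and poly-A controls one of 0.64 (20 probe sets), DKK1 over control. The 3′ to 5′ ratio of Gapdh was 0.759 on the DKK1 array and 0.823 on the control array, and that of Actb was 1.25 on the DKK1 array and 1.61 on the control array. The median difference of all 11058 measured genes was 0.10. Of 8 osteoblast markers 4 were measured, and all 4 were above 0 and not called. These were the collagen genes Col1a1 (0.79) and Col1a2 (0.05), Sp7 (0.36) and Alpl (0.27). Ibsp stayed below the filter, at 34.7 on the DKK1 array and 41.6 on the control array. Runx2, Bglap and Spp1 had no value here. The summed signal of the 5 markers with a value was 31236 on the DKK1 array and 33882 on the control array. Most of both sums came from Col1a2, whose highest signal was 24640 on the DKK1 array and 31456 on the control array. Macrophages and osteoclasts are rich in lysosomes. Of 11 macrophage and leukocyte markers 5 were measured, and the summed signal of all 11 was 1203 on the DKK1 array and 856 on the control array. Lyz2 was higher, at 136 on the DKK1 array and 14.5 on the control array, and Laptm5 lower (−1.10), while Cd14 (0.47), Csf1r (0.45) and Cd68 (0.48) were not called. Ptprc, Itgam and Aif1 had signals of at most 5.89 on the DKK1 array and 11.7 on the control array. The remaining markers of the list, also below the filter, were higher on the DKK1 array. Adgre1 had 53.1 on the DKK1 array and 49.6 on the control array, Tyrobp 59.8 and 32.2, and Fcer1g 74.4 and 35.8. Of 6 osteoclast markers, Ctsk alone was measured, at 15.96 on the DKK1 array and 674 on the control array. The summed signal of all 6 was 125 on the DKK1 array and 815 on the control array. Most of the control sum came from Ctsk. Below the filter, Acp5 had 27.4 on the DKK1 array and 6.55 on the control array, and Oscar 49.2 and 47.4. Dcstamp, Calcr and Ocstamp were lower on the DKK1 array. The sums of all these lists take each marker's highest signal on the array. The part of these measures in the differences below was not tested. In bulk RNA, fewer cells with a transcript and less of it per cell cannot be told apart.

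The median differences of the autophagy and the lysosomal genes lay close to that of all genes, and 1 member had a far larger difference. Sqstm1, the cargo receptor p62, was 5.16-fold lower in its brighter probe set and at least 4.38-fold lower in its dimmer one. Only 2 others were called, both at the edge of the 2-fold limit. These were the lysosomal cholesterol exporter gene Npc1, which was lower, and the lysosomal beta-galactosidase gene Glb1, which was higher. The 3 called genes are 7.69% of the 39 measured members, where 18.6% of all 11058 measured genes were called by the same rule. By direction, 1 member was higher, where 11.7% of all genes were higher, and 2 members were lower, where 6.91% of all genes were lower. Differences under 0.5 in size were found for 27 members (69.2%) and for 53.1% of all measured genes. With 39 members, these shares describe the list on 2 arrays and were not tested.

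**Figure D1:**
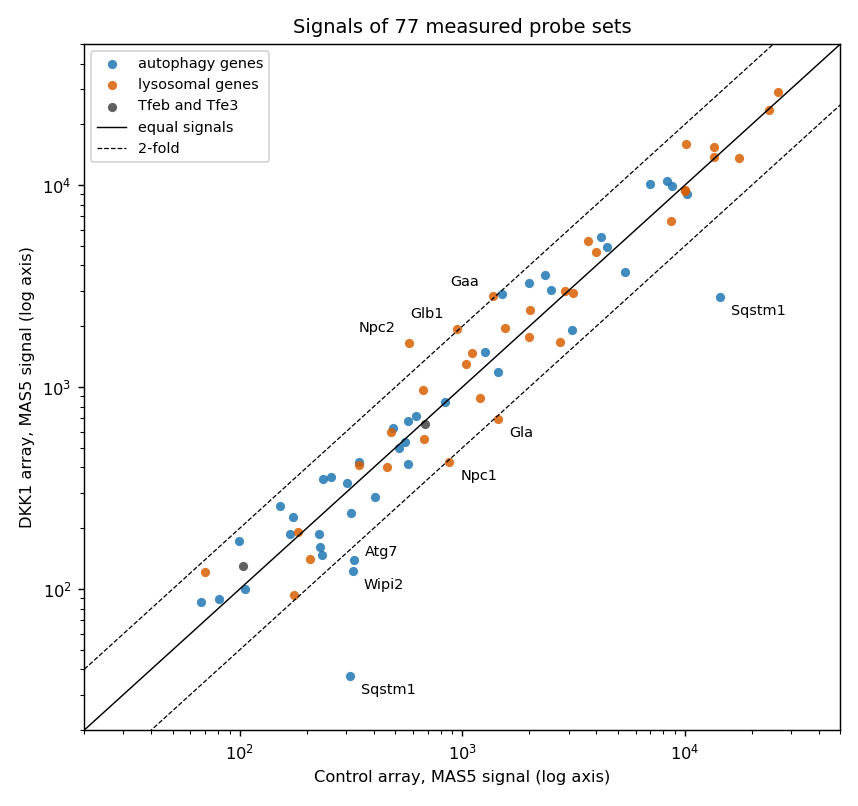
Signals of the 77 used probe sets of the members, DKK1 array against control array on log axes, coloured by side, with lines of equal signal and of a 2-fold difference. Most probe sets lie between the 2-fold lines, and both Sqstm1 probe sets lie far below them.

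The 19 measured autophagy genes had a median difference of 0.10 and a range of −2.49 to 0.62, with 11 above 0 and 8 below it. The 18 measured lysosomal genes had a median of 0.03 and a range of −1.01 to 1.02, with 9 above 0 and 9 below it. The lysosomal median minus the autophagy median was −0.07, and it ran from −0.31 to 0.01 over 11 other ways of processing. Of all measured genes, 55.9% were above 0. The calls were 1 of 19 autophagy genes and 2 of 18 lysosomal genes. Relative to the median of all genes, the autophagy median was −0.004 and the lysosomal median −0.07.

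The E-box bound by TFEB and TFE3 was searched in promoter windows of the members. The windows run from 250 bases before to 50 bases after a transcript start and come from RefSeq, build GRCm38.p6, where 34 of the 41 members had at least 1. The letters searched were CACGTG, a palindrome, and its extended form TCACGTGA, which contains it, on both strands. CACGTG stood in 7 of 17 windows of lysosomal members (41.2%), in 3 of 17 windows of autophagy members (17.6%) and in 7.15% of all 32851 windows. Among the other genes of both pathways it stood in 7 of 44 lysosomal windows (15.9%) and 6 of 46 autophagy windows (13.0%). The extended form stood in 4 lysosomal windows (Atp6v0d1, Atp6v1a, Gla and Mcoln1), in 1 autophagy window (Atg3) and in 0.974% of all windows. It stood in 3 of the 44 further lysosomal windows (6.82%) and 2 of the 46 further autophagy windows (4.35%). The stretches below show 7 of these members, 5′ to 3′ on the gene's strand, with every CACGTG in capitals. They include Glb1, which was called higher, and all those with more than 1 copy. The members left out, Atp6v0d1 (−0.11), Atg5 (−0.38) and Atg7 (−0.80), carry 1 copy each and were below 0. The shown members with 1 copy, Glb1, Gaa and Atp6v1a, were above 0.

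Gla: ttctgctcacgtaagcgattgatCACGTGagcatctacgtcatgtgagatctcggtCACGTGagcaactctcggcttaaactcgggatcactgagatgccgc
Mcoln1: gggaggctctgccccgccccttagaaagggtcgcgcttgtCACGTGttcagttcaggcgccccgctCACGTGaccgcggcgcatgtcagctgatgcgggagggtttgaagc
Lamp1: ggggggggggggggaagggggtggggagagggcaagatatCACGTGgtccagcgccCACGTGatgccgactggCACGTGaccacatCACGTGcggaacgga
Atp6v1a: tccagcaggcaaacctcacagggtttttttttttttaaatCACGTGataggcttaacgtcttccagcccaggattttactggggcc
Gaa: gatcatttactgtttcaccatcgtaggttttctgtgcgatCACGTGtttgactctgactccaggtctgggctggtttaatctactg
Glb1: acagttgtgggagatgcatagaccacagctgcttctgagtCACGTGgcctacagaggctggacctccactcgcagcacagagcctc
Atg3: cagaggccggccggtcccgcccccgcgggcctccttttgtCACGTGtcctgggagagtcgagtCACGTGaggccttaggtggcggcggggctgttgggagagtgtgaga

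These stretches lie at chrX:134601154-134601255 on the minus strand (Gla), chr8:3500408-3500518 on the plus strand (Mcoln1) and chr8:13159060-13159160 on the plus strand (Lamp1). Those of Gaa (chr11:119267783-119267868), Glb1 (chr9:114400990-114401075) and Atg3 (chr16:45158695-45158803) lie on the plus strand, and that of Atp6v1a (chr16:44139345-44139430) on the minus strand. Lamp1 has 4 copies within 101 bases of its start site, and Gla, Mcoln1 and Atg3 have 2 each. Atg5 and Atg7 carry 1 copy each. In the DKK1 cells the 10 members with a CACGTG had a median difference of −0.23, 3 above 0 and 7 below it. The 22 measured members with a window and no CACGTG had a median of 0.19, 16 above 0 and 6 below it. Members that carry the element lay on both sides of 0, from −0.80 for Atg7 to 1.02 for Glb1. This split was made after the values had been seen and was not tested.

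For the ATF4-type element TGATGNAA and the NRF2-type element TGACNNNGC, both strands, the shares over all windows were 3.97% and 12.4%. TGATGNAA stood in 1 of the 17 lysosomal windows, that of Atp6v0d1, and in 0 of the 17 autophagy windows. TGACNNNGC stood in 4 lysosomal windows (Atp6v1a, Hexa, Psap and Scarb2) and 1 autophagy window (Map1lc3b). None of the 4 letter patterns is in the window of Sqstm1, the member with the largest difference. The windows reach only 250 bases before the start, so elements further away were not searched, and control by these factors was not tested. Its last 120 bases before the start site (chr11:50210821-50210940, minus strand) are shown for that reason and have no capitals.

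Sqstm1: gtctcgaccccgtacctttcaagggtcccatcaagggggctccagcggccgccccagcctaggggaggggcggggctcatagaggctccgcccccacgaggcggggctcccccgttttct

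Among the cargo receptors, Sqstm1 and Nbr1 differed in opposite directions. Sqstm1 encodes p62, which binds ubiquitinated cargo and LC3 and also binds KEAP1, the inhibitor of NRF2. Its brighter probe set had a signal of 2780 on the DKK1 array and 14350 on the control array, 5.16-fold lower in DKK1 cells. Its dimmer probe set had 37.1 on the DKK1 array, below the filter, and 312 on the control array, at least 4.38-fold lower when the dim signal is raised to 71.3. The difference of the gene was −2.49 (SD 0.18 between 2 probe sets) with the dim signal as deposited and −2.25 with dim signals raised to the filter. Nbr1, a receptor with a similar domain plan, had signals of 5526 on the DKK1 array and 4184 on the control array in its brighter probe set, and 173 on the DKK1 array and 98.8 on the control array in its dimmer one. Its difference of 0.56 (SD 0.22) was not called.

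The members that start the autophagosome, Ulk1 and Becn1, were not called. Ulk1, the kinase that receives nutrient signals, had signals of 335 on the DKK1 array and 302 on the control array (0.14). Becn1, a subunit of the lipid kinase complex that marks the new membrane, had a difference of 0.10 (SD 0.28 between 5 probe sets). Its 5 probe sets ran from −0.38 to 0.36, so they lay on both sides of 0.

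None of the 7 genes of the conjugation machinery was called, where 18.6% of all measured genes were. Of the 7, 5 were below 0 and the median was −0.38, where 55.9% of all measured genes were above 0. Atg7, the E1-like enzyme that activates both ubiquitin-like proteins, had the lowest value, −0.80 (SD 0.48 between 2 probe sets). Its probe sets had signals of 140 on the DKK1 array and 326 on the control array, and of 162 on the DKK1 array and 229 on the control array. Both were lower in DKK1 cells, but only the first passed 2-fold. Atg3, the E2-like enzyme of LC3, had signals of 3696 on the DKK1 array and 5376 on the control array (−0.54). A dim Atg3 probe set just under the filter, with a mean of 71.2, went the other way, at 99.7 on the DKK1 array and 42.7 on the control array. Atg16l1 (−0.44), Atg5 (−0.38) and Atg12 (−0.12) form the complex that places LC3 on the membrane, and all 3 lay below 0. The other E2-like enzyme gene, Atg10 (0.23), and Atg4b (0.08), the protease that trims LC3, lay above it.

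Of the membrane supply genes, Atg9a and Wipi1 were above 0 and Wipi2 had probe sets that disagreed. Atg9a, a membrane protein of the vesicles that seed autophagosomes, had signals of 360 on the DKK1 array and 256 on the control array (0.46). Wipi1, which binds phosphatidylinositol phosphate on the growing membrane, was higher in all 5 of its used probe sets, from 0.14 to 0.93, with a mean of 0.52 (SD 0.31). Wipi2, which recruits ATG16L1, had 2 probe sets at 0.29 and 0.34 and 1 at −1.28, with signals of 123 on the DKK1 array and 322 on the control array. Its mean of −0.22 (SD 0.92) stands for none of the 3.

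The LC3 and GABARAP family, the proteins attached to autophagosomes, showed no call, where 18.6% of all measured genes were called. Its median was 0.20. Map1lc3a was the highest, with signals of 10145 on the DKK1 array and 6999 on the control array in its brighter probe set and a difference of 0.62 (SD 0.12 between 2 probe sets). Gabarap followed at 0.33, with 10447 on the DKK1 array and 8322 on the control array. Map1lc3b, the form most used as an autophagosome marker, was at 0.20 (SD 0.39), with 3 probe sets from −0.18 to 0.60. Gabarapl2 was at 0.10. Gabarapl1 was the only member of the family below 0, at −0.49 (SD 0.29 between 2 probe sets), with signals of 1909 on the DKK1 array and 3097 on the control array in the brighter one.

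The transcription factor genes were not called. Tfeb had signals of 130 on the DKK1 array and 104 on the control array (0.28). Tfe3 had 656 on the DKK1 array and 683 on the control array (−0.06). Both values rest on 1 probe set, and mRNA does not report where the proteins sit in the cell, which controls their activity.

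**Figure D2:**
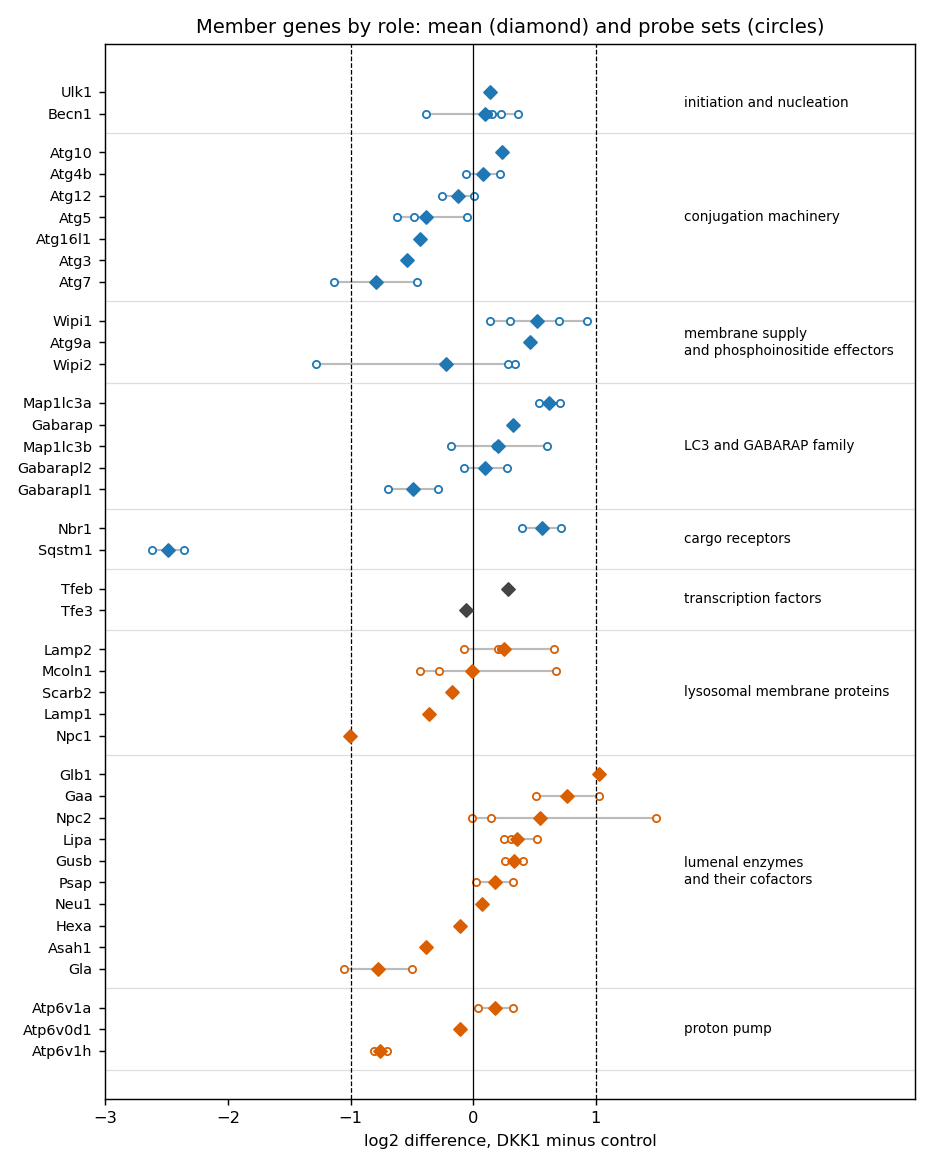
Log2 differences, DKK1 minus control, of the 39 measured members by role, with the gene's mean as a diamond and its used probe sets as circles, and dashed lines at the 2-fold limits. Sqstm1 stands alone at −2.49, and Npc1 and Glb1 lie on the limits.

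Among lysosomal membrane proteins, Npc1 was called and the coat protein genes Lamp1 and Lamp2 were not. Npc1, which moves cholesterol out through the lysosomal membrane, had signals of 427 on the DKK1 array and 874 on the control array, a difference of −1.01 from its only probe set. Lamp1, a heavily glycosylated protein that lines the membrane, had 13604 on the DKK1 array and 17452 on the control array (−0.36). Lamp2, its relative that also takes part in chaperone-mediated autophagy, was at 0.25 (SD 0.30) over 4 probe sets. Scarb2, the carrier of beta-glucocerebrosidase, was at −0.17, with an SD of 0.01 between 2 probe sets. Mcoln1, a calcium release channel, averaged −0.01, but its 3 probe sets ran from −0.44 to 0.68 (SD 0.60).

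Of 10 lumenal enzymes and cofactors 7 were above 0 (70.0%, against 55.9% of all genes), 1 was called and the median was 0.25, against 0.10 for all genes. Glb1, the beta-galactosidase whose activity is used as a mark of senescent cells, had signals of 1947 on the DKK1 array and 948 on the control array, a difference of 1.02 from its only probe set. Gaa, which breaks down glycogen, had 5270 on the DKK1 array and 3686 on the control array in the brighter probe set, and 2812 on the DKK1 array and 1376 on the control array in the other. Both Gaa probe sets were higher in DKK1 cells and the mean was 0.77 (SD 0.36), short of a call. Gla, the alpha-galactosidase lacking in Fabry disease, went the other way at −0.77 (SD 0.39), with 692 on the DKK1 array and 1452 on the control array in its brighter probe set. Its dimmer used probe set had 141 on the DKK1 array and 206 on the control array.

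Npc2, the soluble partner of NPC1, had probe sets that disagreed. The brighter ones had signals of 28916 and 23641 on the DKK1 array against 26193 and 23803 on the control array, differences of 0.14 and −0.01. The remaining used probe set had 1647 on the DKK1 array and 574 on the control array, a difference of 1.49, so the mean of 0.54 (SD 0.83) rests on it. The other enzymes were closer to 0. Lipa, the lipase of cholesteryl esters, was at 0.36 (SD 0.14 between 3 probe sets) and Gusb, the beta-glucuronidase, at 0.33 (SD 0.11 between 2). Psap, the precursor of the saposin cofactors, was at 0.18, the sialidase gene Neu1 at 0.07, the hexosaminidase subunit gene Hexa at −0.11 and the acid ceramidase gene Asah1 at −0.39.

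The 3 proton pump members spread from −0.76 to 0.18. Atp6v1h, a regulatory subunit, had signals of 1674 on the DKK1 array and 2742 on the control array in the brighter of 2 probe sets and a difference of −0.76 (SD 0.07), short of a call. Atp6v0d1, of the membrane sector, was at −0.11. Atp6v1a, the catalytic subunit, was at 0.18 (SD 0.20).

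Npc1 and Glb1 lay just beyond the 2-fold limit, and Atg7, Gla, Gaa and Atp6v1h fell short of it. Of the 77 used probe sets, 9 (11.7%) differed by 2-fold or more, where 19.6% of all used probe sets with 1 symbol did. Of these 9, 2 belong to Sqstm1 and 1 each to Npc1, Glb1, Gaa, Gla, Atg7, Wipi2 and Npc2. In Wipi2 and Npc2 the other used probe sets did not bear out the difference. With Mcoln1, these are the 3 members whose used probe sets differed among themselves by more than 1 on the log2 scale.

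The other genes of both pathways were taken from 9 lists with 117 genes, 109 of them measured. Of these, 5 were higher and 5 lower, 9.17% in all, where 18.6% of all measured genes were called. Of 20 further lysosomal enzymes 3 were called, all of them higher (15.0%, against 11.7% of all genes), and the median was 0.44. They were Dnase2a, which degrades DNA in lysosomes (4629 on the DKK1 array and 1151 on the control array, 1.99, from 1 probe set that the alternative without _x_at and _s_at probe sets drops), and the sulfatase genes Arsb (1.22, SD 0.91 between 2 probe sets) and Arsa (1.11). Of 12 further proton pump genes 2 were called, both lower (16.7%, against 6.91% of all genes), and the median was −0.29. Atp6v1c1, a subunit of the cytosolic sector, had 4000 on the DKK1 array and 12566 on the control array in its brightest probe set and a difference of −1.45 (SD 0.21 between 3 probe sets). Atp6v1g1, of the same sector, was at −1.11 (SD 0.20 between 2). It was not called without the filter (−0.70), with quantile normalization (−0.97), with hybridisation control scaling (−0.74) or with the brightest probe set (−0.97).

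Joined with the members, the 30 measured lysosomal enzymes and cofactors had a median of 0.38, with 23 above 0 (76.7%) and 7 below it. The 15 measured proton pump genes had a median of −0.27, with 4 above 0 (26.7%) and 11 below it. Of all measured genes, 55.9% were above 0, with a median of 0.10. The enzyme median exceeded the pump median by 0.64, and by 0.45 to 0.89 under 11 other ways of processing. The joined lists were made after the values had been seen, and the gap was not tested.

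Of the remaining lists, cargo receptors had 1 of 7 genes higher and 1 lower. For the counts in this paragraph, 11.7% of all measured genes were higher and 6.91% lower. Bnip3, a mitophagy receptor induced by low oxygen, had signals of 1961 on the DKK1 array and 5496 on the control array (−1.48), and Calcoco1, a receptor for endoplasmic reticulum, was higher (1.15, SD 0.45 between 2 probe sets). Of 10 further initiation genes Pik3c3, the lipid kinase partner of Beclin, was higher (1.26), with 456 on the DKK1 array and 181 on the control array. Of 13 fusion genes Epg5, a tether between autophagosome and lysosome, was lower (−1.02). Of 17 genes of nutrient sensing at the lysosome Rragd, a Rag GTPase that brings the kinase MTOR there, was at least 2.50-fold lower, with 34.5 on the DKK1 array, below the filter, and 178 on the control array. A dim Rragd probe set went the same way, at 16.7 on the DKK1 array and 38.7 on the control array. Another dim one went the other way, at 45.1 on the DKK1 array and 19.0 on the control array.

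None of 10 further autophagosome formation genes, 14 membrane proteins and 6 genes of enzyme delivery was called, where 18.6% of all measured genes were. Their largest differences were 0.90 for Atg16l2, a relative of Atg16l1, 0.97 for Tpcn2, a cation channel, and 0.50 for Gnptab, an enzyme of the tag that sorts hydrolases to lysosomes.

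**Figure D3:**
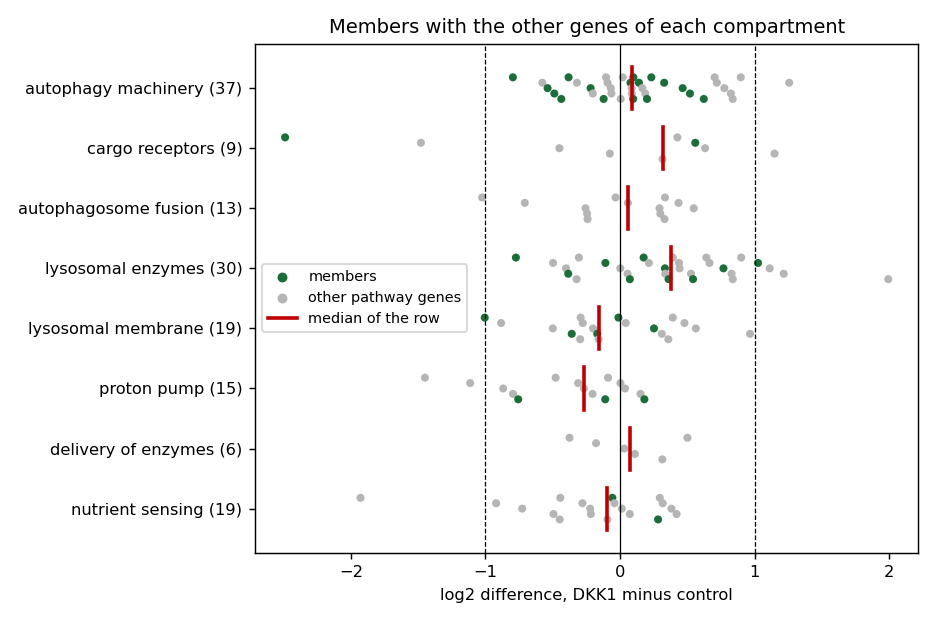
Log2 differences, DKK1 minus control, of members (green) and other pathway genes (grey) by compartment, with the number measured in brackets and the median of each row as a red bar. Lysosomal enzymes centre at 0.38 and proton pump genes at −0.27.

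Sqstm1 kept its call under each alternative that was run, and Npc1 and Glb1 did not. Its difference ran from −3.01 to −2.09 over 11 alternatives and was called in all 11. Npc1 kept its call in 9 and Glb1 in 8 of them. Npc1 lost it with the pseudocount of 69.9 (−0.93) and with scaling on the hybridisation controls (−0.64). Glb1 lost it with the same pseudocount (0.99), with median centring (0.90) and with scaling on the poly-A controls (0.39). Of the called genes of the further lists, Bnip3 and Atp6v1c1 kept the call in all 11 alternatives. Each of the others lost the call or had no value in at least 1. With probe sets held to a mean signal of at least 427, 4 of 34 members were called, where 18.8% of 7097 genes were.

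Scaling on the spike-in controls moved the median of all genes to 0.45 (hybridisation) or −0.50 (poly-A), and the members moved with it. Relative to the median of all genes, the autophagy median lay between −0.01 and 0.21 and the lysosomal median between −0.10 and 0.02 over the 11 alternatives. Whether the members as a whole lay above or below 0 is therefore not settled by these arrays, and statements above on genes above or below 0 hold for the scaling as deposited.

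**Figure D4:**
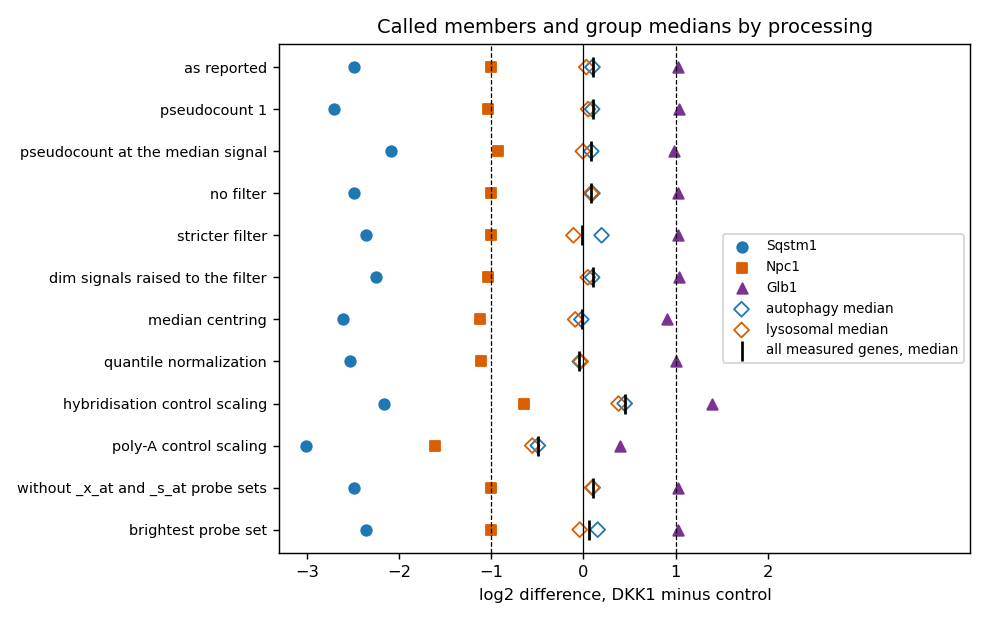
Log2 differences, DKK1 minus control, of Sqstm1, Npc1 and Glb1 and the medians of autophagy members, lysosomal members and all measured genes, as reported and under 11 alternatives. Sqstm1 stays between −3.01 and −2.09, and both group medians follow that of all genes.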

How the data were processed

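RNA of each cell line was hybridised to 1 Affymetrix mouse array from 500 ng of total RNA by a 3′ protocol, per the labels' protocols. The values are intensity values, deposited by the authors as 1 signal per probe set and made with MAS5, per the submitters' processing notes whose version and settings were not stated there. After trimming 2% at either end, the signals of both arrays average 500.0, so each array was scaled on its own. Such scaling hides a shift shared by all genes. No scan time or batch is given here, and with 1 array each a batch cannot be told apart from the group.

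Of 45101 probe sets, 34958 carry 1 gene symbol in the platform annotation, 932 several and 9211 none; 34754 probe sets were matched by gene ID to RefSeq (GRCm38.p6). The 64 control probe sets were left out of gene values. Filter, pseudocount and calls are as in the results (Python 3.11.15, numpy 2.4.6, pandas 2.3.3). The calling code was run on simulated data with planted differences well past the 2-fold limit. That run checks the code, not how reliable calls from 1 array per group are. The array's build is not given here, so only promoter coordinates of RefSeq are printed. All members are named, with up to 3 called genes of each further list, or its largest difference. Members and lists were chosen with earlier results of these data known. The number of arrays limits the precision. The 11 alternatives covered pseudocount, filter, dim signals, scaling and probe set choice.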

Additional observations from a re-analysis of the deposited data

How the results depend on the processing

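The SD of 0.45 between probe sets of 1 gene was the yardstick for single genes, a factor of 1.5 for counts and, chosen after the values had been seen, a move of 0.1 for list medians. The lysosomal minus autophagy median was −0.31 with the stricter filter, where the lysosomal median was −0.11, and −0.19 with the brightest probe set. With median centring the autophagy median was −0.023 and the lysosomal median −0.090, and with quantile normalization the autophagy median was −0.040. With poly-A scaling the autophagy median was −0.50, the lysosomal median −0.56 and the joined enzyme median −0.25. Under it 0 members were higher and 9 lower, where 27.7% of all measured genes were called in either direction. Among the further pathway genes 1 was higher and 21 lower. With hybridisation control scaling the autophagy median was 0.45, the lysosomal median 0.38 and the joined proton pump median 0.10. In that setting 2 members were higher and 1 lower, and 18 further genes were higher and 3 lower. Of all measured genes, 25.2% were called there in either direction. With the pseudocount of 69.9, 0 members were higher and 1 lower, where 13.7% of all measured genes were called. Median centring left 0 members higher, where 18.4% of all measured genes were called in either direction. Without probe sets ending in _x_at or _s_at, 2 members were higher, Gaa joining Glb1, where 18.6% of all measured genes were called in either direction. With the brightest probe set alone, 4 members were lower, Atg7 and Gla joining Sqstm1 and Npc1, and 8 further genes were higher. Of all measured genes, 20.3% were called in either direction in that setting. Without the filter 3 further genes were lower, where 15.1% of all genes were called in either direction. No called member changed sign under any alternative. No paired analysis was possible because each group has 1 array. Under poly-A scaling every measured member moved past the yardstick for single genes, so 0 members stayed within it in all alternatives. Dim probe sets limit Atg3, Neu1 and Wipi2, which also moved past it with another filter, Atg3 to 0.22 without one.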

Other observations

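Of the 91 probe sets of the members, 14 lay below the filter and entered no value above. In 6 of them the difference passed 1 on the log2 scale. The share among all probe sets below the filter is not given here, so this count is not read as a result about the members. Npc2 had 92.1 on the DKK1 array and 6.21 on the control array, Map1lc3b had 57.2 on the DKK1 array and 5.19 on the control array, and Neu1 had 56.3 on the DKK1 array and 3.49 on the control array. Atg12 had 2.28 on the DKK1 array and 28.8 on the control array, and a probe set of Atg7 had 1.86 on the DKK1 array and 25.4 on the control array. That of Wipi1 had 77.5 on the DKK1 array and 26.3 on the control array, in the direction of its 5 used probe sets. For Npc2 the dim probe set was higher in DKK1 cells, as was the used one at 1.49, while the brightest ones were at 0.14 and −0.01.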
